A study of Mus musculus with 262 samples.

Results

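The genes described here are the 2 Rh glycoprotein genes Rhbg and Rhcg and the 8 carbonic anhydrase genes Car2, Car3, Car4, Car8, Car12, Car13, Car14 and Car15, taken by symbol from every deposited table. All 10 were found once in each table, among 47069 genes of the tables in TPM (transcript levels scaled to a fixed total) and 24111 genes of the count table. The series holds kidney RNA from male mice, with an age of 2 months listed for all samples but the dissected tubules. The C57BL/6 samples comprise single cells that the authors named as 87 type A intercalated, 23 type B intercalated, 74 principal, 19 proximal tubule and 32 non-epithelial cells, bulk cells sorted on the label c-Kit (2 samples) or on DBA (2 samples), and hand-dissected single tubules. The tubules were 11 segments of the collecting duct in the cortex (CCD) and 8 of the cortical part of the thick ascending limb (cTAL). The strain Atp6v1b1GFP, whose name joins a proton pump subunit gene to GFP, gave 2 GFP-positive and 2 GFP-negative sorted samples. The labels name no animal for a sample and do not say whether bulk samples were pooled, so p-values measure the spread between these samples, which may be technical. For the GFP samples, column headers name a first and a second experiment, each with a GFP-positive and a GFP-negative sample. The main test did not pair them. The labels name no drug or diet, and cell sorting aside the groups differ in no stated treatment.

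Rh glycoproteins are membrane channels for ammonia. In the collecting duct Rhbg lies in the basolateral membrane and Rhcg in the apical and also the basolateral membrane, and together they carry ammonia from the interstitium to the urine. Carbonic anhydrases interconvert carbon dioxide and water with bicarbonate and protons. Car2 is the main cytosolic enzyme of the kidney. Car4 and Car15 are tied to the outer face of the membrane by a lipid anchor, while Car12 and Car14 span it. Car3 and Car13 are cytosolic, and Car8 is a family member without catalytic activity. Type A intercalated cells secrete acid, type B intercalated cells secrete bicarbonate through pendrin (Slc26a4), and principal cells reabsorb sodium and water.

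In the GENCODE annotation of build GRCm38, 5 of the 10 genes lie on chromosome 3. Car13 (chr3:14641727-14663002), Car3 (chr3:14863512-14872523) and Car2 (chr3:14886273-14900770) follow each other on the plus strand, with 13749 bases between Car3 and Car2. Rhbg (chr3:88242874-88254709) and Car14 (chr3:95897768-95904691) are on the minus strand of the same chromosome. The others are Car8 (chr4:8143362-8239041, minus), Rhcg (chr7:79593363-79617657, minus), Car12 (chr9:66713686-66766845, plus), Car4 (chr11:84957786-84966044, plus) and Car15 (chr16:17835276-17838364, minus). Rhbg shares its strand and part of its span with the gene model Gm38392, and Car15 with Gm20518, so reads can be split between them.

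RefSeq promoter windows were matched for 5 of the 10 genes. The 250 bases before the RefSeq start are printed for Rhcg and Car12, which were higher in CCD than in cTAL, and for Car4, which was lower. Each reads 5′ to 3′ along the gene on build GRCm38.p6, and capitals mark matches on either strand to the motifs named after them.
Rhcg (chr7:79617658-79617907, minus strand): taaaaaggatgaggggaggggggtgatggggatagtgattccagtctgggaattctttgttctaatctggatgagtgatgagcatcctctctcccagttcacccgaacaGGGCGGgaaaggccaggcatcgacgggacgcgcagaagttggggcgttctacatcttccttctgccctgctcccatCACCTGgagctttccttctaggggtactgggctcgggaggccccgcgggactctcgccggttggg
Car12 (chr9:66713436-66713685, plus strand): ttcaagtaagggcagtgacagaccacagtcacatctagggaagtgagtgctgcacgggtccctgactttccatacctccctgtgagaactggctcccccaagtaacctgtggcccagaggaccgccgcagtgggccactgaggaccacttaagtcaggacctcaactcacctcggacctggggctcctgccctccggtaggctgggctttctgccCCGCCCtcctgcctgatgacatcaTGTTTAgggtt
Car4 (chr11:84957504-84957753, plus strand): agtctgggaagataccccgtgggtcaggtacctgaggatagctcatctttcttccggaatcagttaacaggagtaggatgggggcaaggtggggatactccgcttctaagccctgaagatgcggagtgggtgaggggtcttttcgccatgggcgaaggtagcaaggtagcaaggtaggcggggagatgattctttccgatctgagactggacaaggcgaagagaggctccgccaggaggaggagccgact
Both strands of 32851 windows of this length were searched. The Sp1-type motif GGGCGG stood in 32.7% of them. The E-box CACCTG stood in 17.2% and the forkhead core TAAACA in 12.0%. Rhcg held GGGCGG from 141 bases and CACCTG from 65 bases before the start. Car12 held the reverse complements of GGGCGG, from 35 bases before the start, and of TAAACA, from 11 bases before it. The longer forkhead letters GTAAACA, which contain TAAACA, stood in 3.17% of windows and in none of the 5. TATAAA stood in 12.4% of windows and in none of the 5. CCAAT stood in 33.8% and, among the 5, in Car15. The Car4 window held none of these motifs. These matches describe letters in a window and were not tested for binding.

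Depth was known for the GFP samples alone, where 35530885 to 40815091 reads per sample were assigned to genes. TPM keeps no depth. The single cells held a median of 2704.0 (type A) to 3253.0 (proximal tubule) genes at 1 TPM or more by type, and the tubules 7621 to 14004. Defining markers were checked in the bulk groups. All 4 type A, all 3 type B and all 4 shared intercalated markers were called higher in the c-Kit, GFP-positive and CCD groups. Of these, Kit names the c-Kit sort and Atp6v1b1 the GFP strain, so their rise in those groups is no independent check. All 5 thick ascending limb markers were called lower, and all 6 principal cell markers higher, in CCD than in cTAL. In CCD the principal cell markers summed to 24590 to 45552 TPM and the type A markers to 305 to 816 TPM. The summed level of 4 type A markers was 3059 to 3097 TPM in c-Kit and 61.1 to 73.1 TPM in DBA, and that of 6 principal cell markers 2400 to 3246 TPM in c-Kit and 21741 to 24224 TPM in DBA.

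Among single cells, each gene had its own order of types. Car2 and Rhbg led in type A cells and Car12 in type B cells, while the first type for Rhcg and for Car15 depended on the summary used. Car4, Car3 and Car14 had their highest means in proximal tubule cells, which for Car4 did not hold without cells that carried immune markers (17.6 TPM, against 18.0 TPM in type B cells), and Car8 and Car13 were almost absent from the table of cells. A cell type counts as 1 sample here, because no animal is named per cell, so these are descriptions without a test. Sort and type go together in part: 17 of 23 type B cells came from a PNA sort that gave no cell of another type, and principal cells came from the DBA (37 cells) and DBA + c-Kit (37 cells) sorts alone. For type B cells, the sort and the type therefore cannot be told apart here.

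The mean level of Rhbg was 452 TPM (median 226) in type A cells, 346 (median 38.4) in type B cells and 232 (median 55.7) in principal cells. Proximal tubule cells had a mean of 29.1 TPM (median 0.55) and non-epithelial cells 172 TPM (median 1.68). A level of at least 1 TPM was found in 76 of 87 type A cells (87.4%, exact 95% interval 78.5% to 93.5%), 18 of 23 type B cells, 51 of 74 principal cells, 4 of 19 proximal tubule cells and 20 of 32 non-epithelial cells. Intervals cover counting error only: cells are taken as independent, and differences between animals or sorts are left out. The interquartile ranges of the 3 collecting duct types overlap, and differences between these types were not tested. The ratio of the means was 1.31 between type A and type B cells and 1.49 between type B and principal cells. The overlapping model Gm38392 averaged 96.5 TPM in type A, 12.7 in type B and 74.9 in principal cells. With it added to Rhbg, the means were 549, 358 and 307 TPM.

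The mean level of Rhcg was 460.1 TPM in principal cells, 395 in type B cells and 307 in type A cells, with medians of 165, 281 and 117 TPM. Its order therefore turned with the summary: type B cells were highest by median and principal cells by mean. It reached 1 TPM in 67 of 74 principal cells (90.5%), 21 of 23 type B cells (91.3%) and 77 of 87 type A cells (88.5%), against 9 of 19 proximal tubule cells and 16 of 32 non-epithelial cells.

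Both Rh genes were at 1 TPM or more in the same cell in 71 of 87 type A cells, 16 of 23 type B cells and 45 of 74 principal cells. The balance between them differed by type. Rhbg was the higher of the pair in 55 of 87 type A cells (63.2%), 10 of 23 type B cells (43.5%) and 28 of 74 principal cells (37.8%). The ratio of the mean of Rhbg to that of Rhcg was 1.47 in type A, 0.875 in type B and 0.505 in principal cells.

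Car2 was the most abundant of the 10 genes in every type. Its mean was 9408 TPM in type A cells, 5093 in type B, 3911 in principal, 2696 in non-epithelial and 2108 in proximal tubule cells. It was at 1 TPM or more in every cell but 1, a non-epithelial cell. The interquartile range of type A cells ran from 6899 to 12468 TPM and that of type B cells from 2092 to 7076 TPM, which overlap by a small margin. The spread within the non-epithelial cells was wide, with a lower quartile of 36.4 TPM and a median of 2195 TPM.

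Car12 separated intercalated cells from principal cells. Its mean was 612 TPM (median 418) in type B and 225 TPM (median 96.0) in type A cells, and 32.2 TPM (median 0.44) in principal cells. The interquartile range of type A cells (32.3 to 243 TPM) lay above that of principal cells (0 to 12.1 TPM). All 23 type B cells reached 1 TPM (exact 95% interval from 85.2%), as did 78 of 87 type A and 29 of 74 principal cells.

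Car15, the lipid-anchored enzyme, was ordered differently. Its mean was 3005 TPM in type B, 1672 in principal and 618 in type A cells, with medians of 2290, 1367 and 176 TPM. At the limit of 1 TPM, 93.2% of principal cells (69 of 74) held Car15, followed by type A with 87.4% (76 of 87) and type B with 82.6% (19 of 23). At 10 TPM, a limit chosen after seeing the data, the order of types A and B turned, with 65 of 74 principal, 17 of 23 type B and 53 of 87 type A cells. Its highest single cell was a type B cell at 17430 TPM, and leaving out the 5% highest cells kept type B first. By the mean of log2 values, principal cells were first. Car15 exceeded Car12 in 68 of 74 principal cells, 14 of 23 type B cells and 49 of 87 type A cells.

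**Figure D1:**
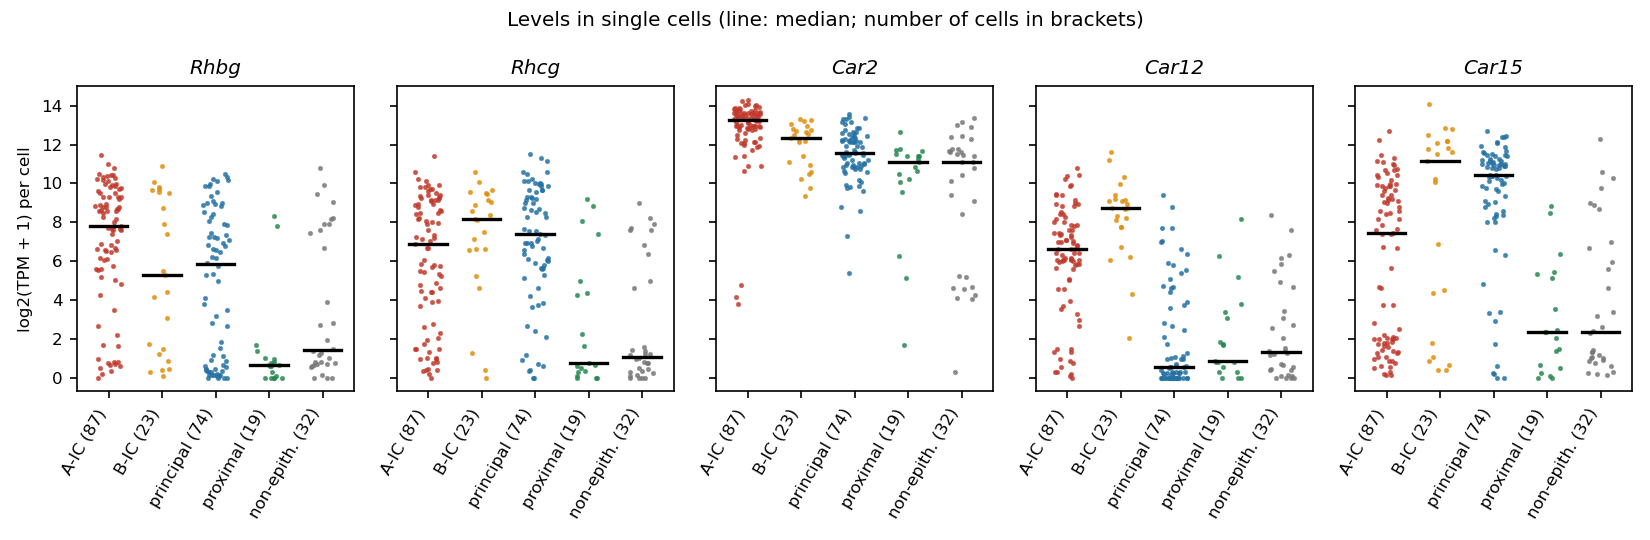
Each point is 1 cell, with log2(TPM + 1) on the vertical axis, and the black line is the median of its type. Car2 has a high median in all types, but in non-epithelial cells its lower quartile is 36.4 TPM. Car12 has a median near 0 in principal cells (0.44 TPM) and 418 TPM in type B cells, and Rhbg, Rhcg and Car15 span the whole range within types.

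All 5 of these genes were at 1 TPM or more together in 60 of 87 type A cells, 15 of 23 type B cells, 19 of 74 principal cells, 10 of 32 non-epithelial cells and 0 of 19 proximal tubule cells. Across all single cells the correlations between them were low to moderate, from -0.04 for Car12 with Car15 to 0.46 for Rhcg with Car2 (Pearson's r of log2(TPM + 1), over cells whose depth also varies). The genes most like each were then read from 7565 genes found in at least 24 cells. For Rhbg they were Gm38392 (r = 0.55), the overlapping model, Tmem213 (0.50) and Oxgr1 (0.48). For Rhcg they were S100a1 (0.49), Tmem213 (0.48) and Tfcp2l1 (0.48), and for Car2 Tfcp2l1 (0.66), Tmem213 (0.61) and Ldhb (0.59). Car12 was most like 3 subunits of the vacuolar proton pump, Atp6v1c2 (0.72), Atp6v1g3 (0.69) and Atp6v0d2 (0.68). Car15 was most like its overlapping model Gm20518 (0.77), Tmem52b (0.52) and 1700011H14Rik (0.45).

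The remaining 5 carbonic anhydrases were rare in single cells. Car4 reached 1 TPM in 8 of 19 proximal tubule cells (mean 63.9 TPM) and in 3 type A, 1 type B, 2 principal and 1 non-epithelial cell. Car3 did so in 5 of 19 proximal tubule cells (mean 75.3 TPM), 12 of 74 principal cells (mean 0.75 TPM), 2 type A and 2 non-epithelial cells, and Car14 in 5 of 19 proximal tubule cells (mean 42.1 TPM), 4 type B and 3 type A cells. Car8 was found in 1 principal cell at 314 TPM. Car13 reached 1 TPM in 0 of all single cells, which allows a share of up to 1.28% by the rule of 3 counts. That limit covers counting error for cells at this level, not cells that express the gene. Medians of all 5 were at most 0.06 TPM in every type.

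The non-epithelial and some epithelial cells held markers of another type, and some values of the 10 genes differed without those cells. All 32 non-epithelial cells carried markers of their own list (summed level 4738 to 72959 TPM), and 20 of them also held at least 100 TPM of Atp6v1g3 or Aqp2, which mark intercalated and principal cells. In the other 12 cells the mean of Rhbg was 0.70 TPM in place of 172, that of Rhcg 0.41 in place of 59.5, that of Car12 1.80 in place of 27.2, and the median of Car2 was 24.0 TPM in place of 2195. No Rhbg or Rhcg value in these 12 cells, all under 100 TPM of both markers, passed 1.57 TPM. Car15 still averaged 74.9 TPM in them, with a highest value of 878 TPM, and Car2 reached 2167 TPM. Of the type A cells, 70 of 87 were without 100 TPM of Cd74 or 10 TPM of Ptprc, which mark immune cells. In them the median of Car15 was 36.3 TPM in place of 176, while that of Rhbg was 222 in place of 226 and that of Car2 9432 in place of 9853. Of the proximal tubule cells, 13 of 19 passed the same limits. In them Car4 reached 1 TPM in 3 cells and averaged 17.6 TPM in place of 63.9, while Car3 averaged 85.2 in place of 75.3 and Car14 54.2 in place of 42.1. All 23 type B cells passed these limits, which cover immune markers alone and not markers of other epithelial types. Summed thick ascending limb markers had a median of 14.2 TPM in type B cells and reached 4399 TPM. In proximal tubule cells, summed principal cell markers had a median of 157 TPM and reached 10989 TPM. The limits for these cells were chosen after seeing the data, and the part of mixed cells in the values was not tested further.

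GFP-positive cells were compared with GFP-negative cells to ask what marks cells in which the proton pump reporter is on. Both Rh genes, Car2, Car12 and Car15 rose in the GFP-positive samples, and Car4 and Car14 fell. Among 15671 genes tested with edgeR's quasi-likelihood test, 15.2% were called higher and 17.3% lower at a Benjamini-Hochberg adjusted p under 0.05. Of the 10 genes, 5 were called higher and 2 lower, and the median log2 difference was 1.45 over the 10 and 0.02 over all genes tested.

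Rhbg was at 1.62 and 1.35 CPM (counts scaled to library size by TMM) in the GFP-negative samples and at 129 and 195 CPM in the GFP-positive ones. Rhcg was at 15.0 and 17.6 CPM against 350 and 548 CPM. For both genes the groups were far apart and every GFP-positive sample was above every GFP-negative one. The log2 difference was 6.76 ± 0.30 for Rhbg (SE, edgeR adjusted p = 2.41e-05) and 4.79 ± 0.27 for Rhcg (edgeR adjusted p = 4.31e-05), which is 108-fold and 27.6-fold. Counts carry gene length, so levels of different genes were compared in RPKM, reads scaled for gene length and depth by the authors. In that unit the ratio of Rhcg to Rhbg was 1.77 to 2.24 in the GFP-positive samples. Low RPKM values did not follow the counts: Rhbg was at 0.171 and 1.14 RPKM in the GFP-negative samples, whose counts were 69 and 46.

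Car2 was at 201 and 212 CPM in GFP-negative and 1127 and 1700 CPM in GFP-positive samples. Car12 went from 169 and 105 CPM to 1435 and 1420 CPM, and Car15 from 56.4 and 96.5 CPM to 399 and 570 CPM. None of these groups overlapped, which with 2 samples a group also held for Car3 and Car13, whose differences did not pass. The log2 differences were 2.77 ± 0.24 (Car2), 3.38 ± 0.27 (Car12) and 2.66 ± 0.29 (Car15), with edgeR adjusted p of 9.54e-05, 6.69e-05 and 0.000265. These are 6.84-fold, 10.4-fold and 6.34-fold.

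Car4 was at 91.5 and 108 CPM in GFP-negative and 37.7 and 25.4 CPM in GFP-positive samples, and fell by 1.66 ± 0.23 on the log2 scale (edgeR adjusted p = 0.000843). Car14 was at 35.6 and 37.1 CPM against 9.78 and 6.97 CPM and fell by 2.12 ± 0.26 (edgeR adjusted p = 0.000427). Both groups stayed apart. Markers of the proximal tubule moved the same way: all 6 were called lower in GFP-positive samples, with a median log2 difference of -2.75, and 5 of 6 non-epithelial markers were also lower. Their part in the values of Car4 and Car14 was not tested. Fewer cells of a type and less RNA per cell cannot be told apart in bulk samples.

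Car3 was at 11.6 and 5.12 CPM against 3.98 and 1.66 CPM, with a log2 difference of -1.56 ± 0.55 that did not pass (edgeR adjusted p = 0.0598). With the replicate number as a block it was called lower (edgeR adjusted p = 0.00564), so 3 genes were then lower. It also passed with DESeq2 (adjusted p = 0.0175) and without a filter on low counts (edgeR adjusted p = 0.0308). Car3 did not pass with upper quartile scaling, with a mean of at least 50 counts or with limma on RPKM. In RPKM its log2 difference was -0.37 and the groups overlapped. Leaving out GFP-negative replicate 2 gave an edgeR adjusted p of 0.011, and leaving out GFP-positive replicate 1 gave 0.0353. Without GFP-negative replicate 1 the edgeR adjusted p was 0.303, and without GFP-positive replicate 2 it was 0.228. Car13 and Car8 were low in all 4 samples, and their log2 differences of -0.97 and 0.23 did not pass (edgeR adjusted p = 0.166 and 0.754). The intervals of these 2 differences ran from -2.09 to 0.15 and from -0.87 to 1.33.

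Of 23 other genes of ammonia and bicarbonate handling, 11 were called higher and 4 lower in GFP-positive samples, against 15.2% and 17.3% of all genes tested. The share lower is near that of all genes. The largest rises were those of the anion exchangers Slc26a4 (pendrin, log2 difference 7.12), Slc4a9 (6.71), Slc4a1 (AE1, the basolateral exchanger of type A cells, 6.40) and Slc26a7 (6.05). The 4 that fell were Pck1 (-2.97), an enzyme of gluconeogenesis, Slc38a3 (-2.83), a glutamine transporter, Slc4a4 (-2.15), the proximal bicarbonate cotransporter, and Glul (-1.32), glutamine synthetase. All 4 distal convoluted and connecting tubule markers were called higher too, with a median log2 difference of 2.97, and 5 of 6 principal markers. Of 5 thick ascending limb markers, 1 was called higher and 1 lower. Slc12a1, a cotransporter from that list, was at 7430 and 3966 CPM in GFP-positive and 4042 and 3686 CPM in GFP-negative samples. The part of these segments in the values of the 10 genes was not tested. Of 10 further Rh and carbonic anhydrase genes, 5 could be tested, and Car7 (-2.63) and Car9 (-2.46) fell.

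The c-Kit and DBA samples contrast an intercalated with a principal cell fraction, according to their markers. Rhbg, Car2 and Car12 rose in c-Kit samples, Car3, Car14 and Car15 fell, and Rhcg did not differ beyond the test's threshold. Among 14341 genes tested with limma on log2(TPM + 1), 16.1% were called higher and 28.1% lower in c-Kit, against 3 higher and 3 lower of the 9 genes tested. Their median log2 difference was 0.16, and that of all genes -0.11. Quantile normalization moved the median of all genes to 0.02 and the split of called genes from 2315 higher and 4033 lower to 3055 and 3072. It left 3 higher and 3 lower among the 9.

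Rhbg was at 1667 and 1650 TPM in c-Kit and at 487 and 456 TPM in DBA samples, a log2 difference of 1.81 ± 0.06 (SE, limma adjusted p = 5.65e-06). Rhcg was at 2123 and 2133 TPM in c-Kit and at 2010 and 1805 TPM in DBA. Its log2 difference of 0.16 ± 0.07 did not pass (limma adjusted p = 0.116), with a 95% interval from -0.01 to 0.33. Its sign turned to -0.03 under quantile normalization. The ratio of Rhcg to Rhbg was 1.27 and 1.29 in c-Kit and 4.12 and 3.96 in DBA samples. These ratios do not overlap, and with 2 samples a group an exact permutation test cannot go below p = 0.333.

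Car2 was at 3860 and 3980 TPM in c-Kit and at 1520 and 1406 TPM in DBA samples (log2 difference 1.42 ± 0.07, limma adjusted p = 1.83e-05). Car12 was at 1163 and 1249 TPM against 193 and 188 TPM (2.65 ± 0.06, limma adjusted p = 2e-06). Car15 ran the other way, with 601 and 622 TPM in c-Kit and 1061 and 1005 TPM in DBA. It fell by 0.75 ± 0.06 in c-Kit on the log2 scale (limma adjusted p = 0.000141). The order of the 2 membrane enzymes turned between the fractions: the ratio of Car15 to Car12 was 0.517 and 0.498 in c-Kit and 5.49 and 5.34 in DBA.

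Car3 was at 19.1 and 11.8 TPM in c-Kit and at 53.1 and 53.4 TPM in DBA, and fell by 1.76 ± 0.20 on the log2 scale (limma adjusted p = 0.000678). Car14 was at 52.4 and 33.0 TPM against 84.0 and 80.7 TPM and fell by 0.97 ± 0.19 (limma adjusted p = 0.00764). Its call was lost without DBA replicate 1 (limma adjusted p = 0.0983), without DBA replicate 2 (0.0932) and with no filter on low values (0.0529). Proximal tubule markers were lower in c-Kit for 5 of 6 genes, with a summed level of 2545 to 2815 TPM against 4209 to 4544 TPM in DBA, and non-epithelial markers for 4 of 6, with 3434 to 3708 against 10173 to 10555 TPM. Their part in the values of Car3 and Car14 was not tested.

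Car4 was at 99.5 and 115 TPM in c-Kit and at 104 and 117 TPM in DBA, and the groups overlapped. Its log2 difference was -0.05 with an interval from -0.28 to 0.19 (limma adjusted p = 0.732). Car8 was at most 2.78 TPM in c-Kit and 2.14 TPM in DBA (log2 difference 0.48, interval -0.13 to 1.08, limma adjusted p = 0.170). Car13 was between 0.45 and 1.45 TPM in all 4 samples and was below the limit for testing.

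**Figure D2:**
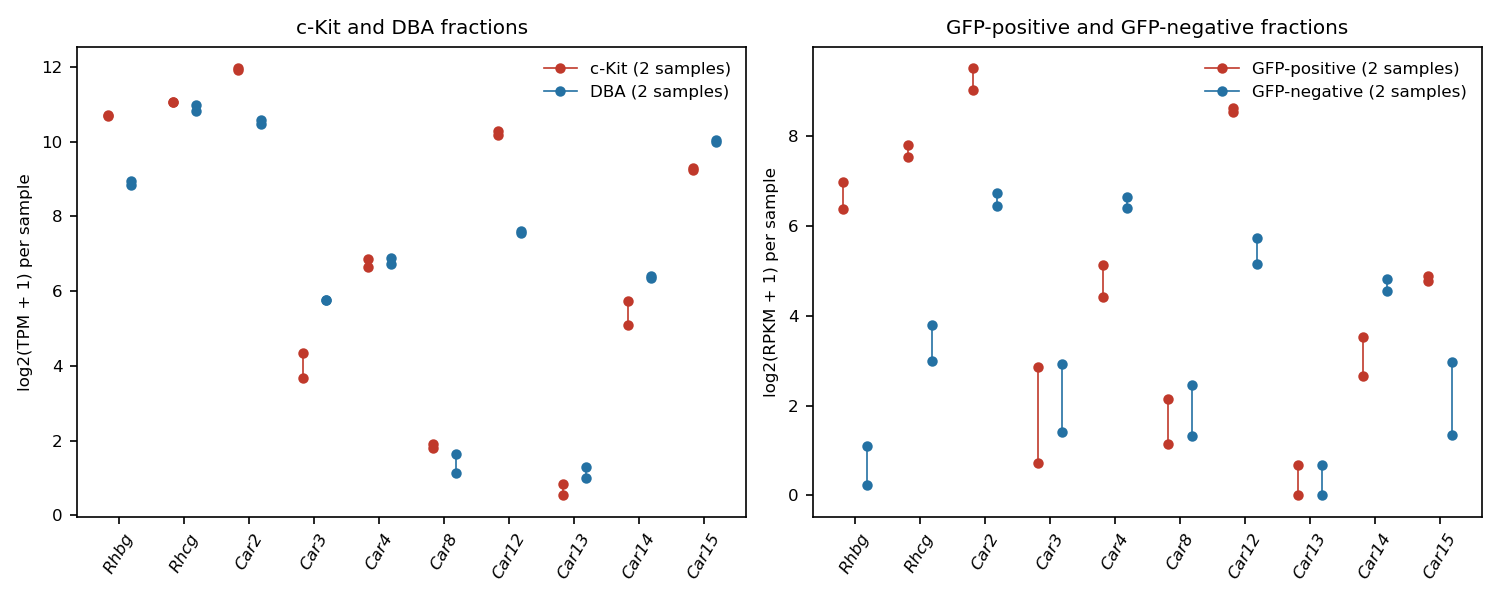
Each point is 1 sorted sample, joined within a group, on log2(TPM + 1) for c-Kit and DBA and on log2(RPKM + 1) for the GFP fractions. Both c-Kit samples lie slightly above both DBA samples for Rhcg (2123 and 2133 against 2010 and 1805 TPM, a difference that did not pass), while Rhbg and Car12 are higher in c-Kit and Car15 is higher in DBA.

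Of 22 tested genes of ammonia and bicarbonate handling, 10 were called higher and 5 lower in c-Kit samples, against 16.1% and 28.1% of all genes tested. The share lower is not above that of all genes. Slc4a1 (log2 difference 5.73), Slc4a9 (4.13), Slc26a4 (2.67) and the proton pump subunit Atp6v0a4 (2.17) rose most. Atp12a (-1.82), the colonic type of proton-potassium pump, Slc4a4 (-1.26), Slc4a8 (-0.63) and Slc9a3 (-0.56) fell most. Of the 5 further Rh and carbonic anhydrase genes tested, Car5b (-1.43), a mitochondrial enzyme, and Car11 (-1.05) fell.

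The dissected tubules set the collecting duct against the thick ascending limb, where ammonium is reabsorbed from the tubule fluid. Both Rh genes, Car12 and Car2 rose in CCD, Car4 fell, and Car15 was high in both segments. Among 13520 genes tested with limma on log2(TPM + 1), 13.2% were called higher and 5.5% lower in CCD, against 4 higher and 1 lower of the 9 genes tested. Their median log2 difference was 0.62, and that of all genes 0.31. Quantile normalization moved the latter to -0.03 and the split of called genes from 1782 higher and 744 lower to 1221 and 1244, and 4 higher and 2 lower of the 9 were then called.

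Rhcg ranged from 2144 to 3962 TPM (median 2922) over 11 CCD and from 0.30 to 4.12 TPM (median 2.22) over 8 cTAL. Rhbg ranged from 884 to 1392 TPM (median 1137) in CCD and from 0.24 to 4.34 TPM (median 0.72) in cTAL. In no tubule did the segments overlap for either gene. The log2 difference was 9.96 ± 0.21 for Rhcg (limma adjusted p = 5.34e-20) and 9.11 ± 0.23 for Rhbg (limma adjusted p = 9.88e-19). Over the alternative settings these sizes ran from 8.69 to 10.6 for Rhcg and from 7.53 to 10.1 for Rhbg. The ratio of Rhcg to Rhbg stayed within 1.89 and 3.34 over the CCD, with a median of 2.66.

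Car12 ranged from 460 to 1669 TPM (median 887) in CCD and from 2.51 to 70.1 TPM (median 52.8) in cTAL. Car2 ranged from 1845 to 2831 TPM (median 2327) in CCD and from 349 to 724 TPM (median 441) in cTAL. Every CCD was above every cTAL for both. The log2 differences were 4.88 ± 0.46 (limma adjusted p = 2.01e-08) and 2.38 ± 0.11 (limma adjusted p = 1.15e-13). In cTAL Car2 was never below 349 TPM, while neither Rh gene passed 4.34 TPM.

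Car4 was the gene of the opposite pattern. It ranged from 209 to 580 TPM (median 469) in cTAL and from 0.14 to 56.0 TPM (median 12.4) in CCD, with no overlap. It fell in CCD by 5.74 ± 0.65 on the log2 scale (limma adjusted p = 4.44e-07). The CCD themselves varied 400.2-fold, from 0.14 TPM in m1_CCD1 to 56.0 TPM in m4_CCD1. The summed level of 5 thick ascending limb markers in CCD was 53.5 to 701 TPM, against 33613 to 53916 TPM in cTAL, and that of 6 proximal markers in CCD 12.9 to 822 TPM. Their part in the Car4 level of CCD was not tested.

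Car15 ranged from 438 to 2199 TPM (median 1522) in CCD and from 113 to 1911 TPM (median 1015) in cTAL, and the segments overlapped widely. The log2 difference of 0.59 ± 0.39 did not pass (limma adjusted p = 0.347), with a 95% interval from -0.23 to 1.404. It was 0.23 without m2_CCD2 and m3_cTAL1, the tubules with the fewest genes in each segment. In CCD the level of Car15 was near that of Car12 (ratio 0.297 to 3.46, median 1.16), and in cTAL it was 17.7 to 81.3 times higher. This ratio was chosen after seeing the levels and restates the difference in Car12, so no p-value is reported for it.

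**Figure D3:**
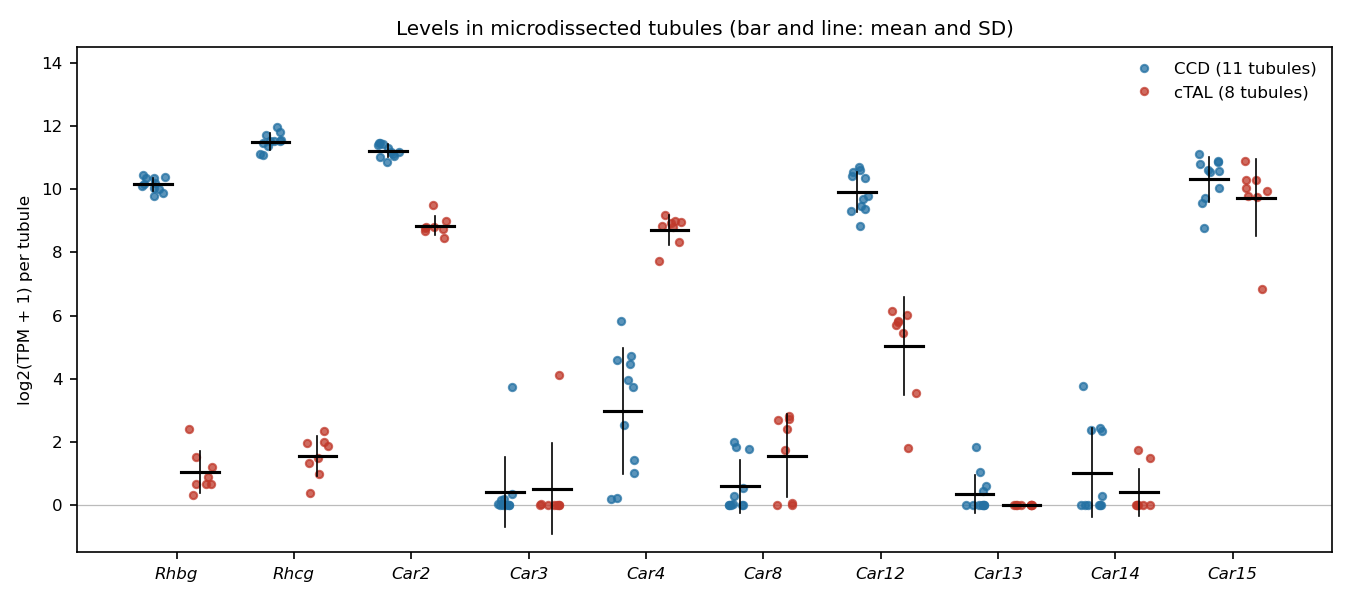
Each point is 1 tubule on log2(TPM + 1), with the mean and SD of each segment drawn as a bar and a line. Rhbg, Rhcg, Car2 and Car12 separate CCD above cTAL, Car4 separates them the other way, and Car15 overlaps with 1 low cTAL tubule at 113 TPM.

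The coefficient of variation over 11 CCD was 13.8% for Car2, 14.6% for Rhbg and 18.2% for Rhcg, but 39.5% for Car15 and 41.1% for Car12. The highest CCD exceeded the lowest 1.53-fold for Car2, 3.63-fold for Car12 and 5.02-fold for Car15. Tubules of the same column prefix, whose meaning the labels do not give, were m3 with 636 and 700 TPM of Car12, m4 with 1379 and 1546, m6 with 460 and 659 and m7 with 1312 and 887. Whether Car12 varied by prefix was not tested.

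Car14 was at 0 to 12.8 TPM in CCD and at 0 to 2.31 TPM in cTAL, and was listed at 0 in 12 of the 19 tubules. Car8 (0 to 5.98 TPM over all tubules), Car3 (at most 16.2 TPM) and Car13 (at most 2.60 TPM, listed at 0 in all cTAL) were low throughout. The log2 differences of Car14 (0.62, limma adjusted p = 0.476), Car8 (-0.96, 0.189) and Car3 (-0.11, 0.922) did not pass, and Car13 was below the limit for testing. With quantile normalization Car8 was called lower in CCD (limma adjusted p = 0.0281).

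Of 21 tested genes of ammonia and bicarbonate handling, 10 were called higher and 3 lower in CCD, against 13.2% and 5.5% of all genes tested. Slc26a4 (log2 difference 9.28), Slc4a9 (8.33), Slc4a1 (7.78) and Atp4a (3.33), the catalytic subunit of the gastric proton-potassium pump, rose most. Those that fell were Slc12a1 (-8.70), the sodium, potassium and chloride cotransporter that also carries ammonium, Slc9a3 (-5.67), a sodium-proton exchanger, and Glud1 (-0.73), which releases ammonia from glutamate. None of the 3 further Rh and carbonic anhydrase genes that could be tested was called by limma.

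**Figure D4:**
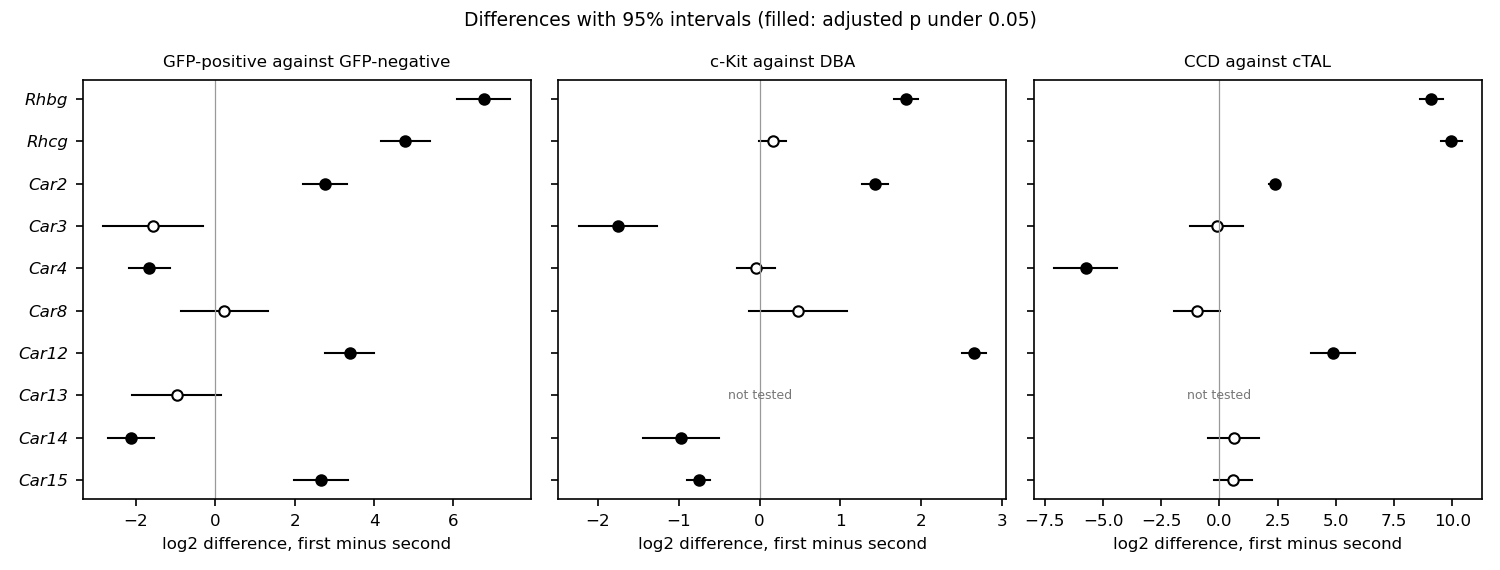
Each point is the log2 difference of 1 gene, first group minus second, with its 95% interval, filled where the adjusted p was under 0.05. Rhbg, Car2 and Car12 are higher in the first group in all 3 comparisons, Rhcg in 2 of them, and Car15 changes sign between GFP (2.66) and c-Kit (-0.75).

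The same genes can be read across the tables, which were normalized separately and were not tested against each other. Car12 was higher in intercalated than in principal single cells, in c-Kit than in DBA and in GFP-positive than in GFP-negative samples. Car15 had a lower mean in type A than in principal single cells (618 and 1672 TPM) and its highest mean in type B cells (3005 TPM). It was lower in c-Kit than in DBA samples, with type A and type B markers both higher in c-Kit, and it was 6.34-fold higher in GFP-positive than in GFP-negative samples. Rhcg did not pass the test between c-Kit and DBA, and its interquartile ranges overlapped between principal and type A single cells. Examples of other genes of ammonia and bicarbonate handling are given in single cells where their mean reached 50 TPM in a type. Pendrin (Slc26a4) averaged 1201 TPM in type B cells, and Slc4a1 averaged 195 TPM in type A cells. Slc4a9 was highest in type B cells (406 TPM), followed by type A (229.9 TPM) and non-epithelial cells (72.0 TPM). The proton pump subunits Atp6v0a4 and Atp6v1b1 averaged 564 and 521 TPM in type A cells, against 387 and 317 TPM in type B cells and 126 and 184 TPM in principal cells. Atp4a averaged 103 TPM in principal cells. Proximal tubule cells held Pck1 (347 TPM), Slc4a4 (194 TPM), Glul (163 TPM) and Glud1 (103 TPM).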

How the data were processed

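RNA-seq values of mouse kidney samples were analysed as deposited. Single cells were captured, lysed and amplified on a microfluidic chip and tubules were dissected by hand, per the labels' protocols. The TPM tables (cells, tubules, c-Kit and DBA samples) and, for the GFP samples, raw read counts and RPKM values were made by the authors, and the tubule unit was read from column sums of 999999.1 to 1000000.5. The submitters' processing notes list STAR 2.5.1b, RSEM 1.2.31, Seurat and GRCm38.p5 without their role. Names of the deposited count and RPKM tables give HTSeq-count and RefSeq on mm10. Whether counting used strand is not stated in these sources. Reads assigned to no gene (66.7% to 72.8%) stayed out of the library sizes.

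GFP counts were compared with edgeR 4.0.16 (TMM, filterByExpr, quasi-likelihood test) and TPM values with limma 3.58.1 on log2(TPM + 1), a variance trend and a mean of at least 1 TPM, which understates changes of low genes. P-values were adjusted over all genes by Benjamini-Hochberg and called under 0.05. Differences are first group minus second. Single cells are given by mean, median and the share at 1 TPM or more, with exact Clopper-Pearson 95% intervals, on the authors' cell types, without a doublet caller. The labels give the sort by type, but the sort label of a single cell could not be tied to its column. The fits were tested on simulated data. Python 3.11.15, scipy 1.17.1, R 4.3.3 and DESeq2 1.42.0 were used.

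The 10 genes and the lists of other genes were chosen with earlier results of these data known. From the list genes, those called were named, at most 4 per direction by size, and in single cells examples with a mean of at least 50 TPM. The values of 1 list gene are not reported here. Same-numbered samples deviated together with r = 0.17 (GFP) and 0.03 (c-Kit and DBA), with 2 pairs each. The RPKM headers name a first and a second experiment, which is where a pairing of the GFP samples comes from, and no label says what the c-Kit and DBA numbers share. Alternatives were DESeq2, other scalings, filters and pseudocounts (0.1 and 5), sample weights, the replicate block, RPKM, leaving out each sample, other summaries over cells and, added after seeing the data, column prefixes, overlapping gene models and mixed cells.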

Additional observations from a re-analysis of the deposited data

Results flagged for a closer look

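Among the 8 cTAL tubules, 3 genes had 1 tubule whose gap to the next was large against the range of the group by Dixon's criterion. Chance meets it in about 1 of 20 groups of normally distributed values, which was not checked for these TPM values. Rhbg was at 4.34 TPM in m7_cTAL2, Car2 at 724.26 TPM in m3_cTAL1 and Car3 at 16.17 TPM in m7_cTAL1, each the highest of its segment. Car3 was listed at 0 in 6 of these 8 tubules, where almost any level meets the criterion. The tubule m3_cTAL1 also had the lowest Car12 (2.51 TPM), Car15 (113 TPM) and Car4 (209 TPM) of its segment and the fewest genes at 1 TPM or more, 8094. Among the CCD, to which that criterion was not applied, Car3 was highest in m7_CCD1 at 12.3 TPM, where the other 10 were at most 0.28 TPM.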

How the results depend on the processing

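Rhbg, Car2 and Car12 kept their direction and their call in all 3 replicated comparisons under every alternative run, as did Rhcg in the GFP and tubule comparisons, Car4 in those same comparisons and Car15 in the GFP and c-Kit comparisons. Counts of genes called moved from 5101 to 1639 with limma on RPKM in the GFP comparison and from 2526 to 4401 with sample weights in the tubules, and the cause was not tested. With the replicate number as a block 5897 genes were called in the GFP comparison and 6271 in place of 6348 for c-Kit and DBA, and apart from Car3 it changed no call of the 10 genes. Leaving out single samples gave 3458 to 5701 genes called for c-Kit and DBA (3600 without DBA replicate 1, 3458 without DBA replicate 2), 3616 to 4211 for GFP and 2239 to 3078 for the tubules. With quantile normalization the genes called lower in CCD rose from 1 to 2 of the 9. Signs that turned belonged to differences that did not pass: Car8 in GFP (-0.25 with limma on RPKM, and -0.33 to 1.201 when 1 sample was left out), Rhcg in c-Kit (-0.031 with quantile normalization), Car4 in c-Kit (-0.149 to 0.0586 when 1 sample was left out, against -0.05 with all) and Car3 in the tubules (0.12 with a pseudocount of 0.1, 0.0242 with the prefix as a replicate block). In single cells the type with the highest level was kept by 3 of 5 genes under the mean of log2 values. The log2 lead of principal over type B cells for Rhcg turned to -0.77 by median and -0.26 by the mean of log2 values, and the lead of type B over principal cells for Car15 to -1.09 by the latter. Depth limits cannot be given for TPM values.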
